A study of Mus musculus with 4 samples.

Results

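Protein kinase A (PKA) is the main sensor of cyclic AMP (cAMP) in most cells, and 9 genes that set its level and its signal were followed here: the regulatory subunit genes Prkar1a, Prkar2a and Prkar2b, the catalytic subunit genes Prkaca and Prkacb, the inhibitor gene Pkia, and the phosphodiesterase genes Pde4a, Pde4b and Pde4d. They were chosen by symbol, and each of the 9 had 1 of the 23282 rows used. All 9 passed the filter on low counts, as did 13285 genes in all. The list was drawn up with earlier results of these data known, so the differences between the groups are given for these genes as a description and nothing is rested on them.

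RNA still bound to chromatin was sequenced from C2C12 myotubes, which are the multinucleated cells formed by a female mouse myoblast line after it stops dividing. Both groups had been deprived of steroids. The vehicle group received the carrier alone and the dexamethasone group 1 µM of this synthetic glucocorticoid, each for 2 h, with 2 libraries per group and 4 in all. The labels do not say whether the libraries came from separate cultures, so p-values measure only the spread between these libraries, which may be technical. The only comparison in the design is dexamethasone against vehicle, which asks how transcription responds early to a glucocorticoid.

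In the resting PKA holoenzyme, regulatory subunits hold the catalytic subunits inactive, and cAMP binding to the regulatory subunits sets the catalytic subunits free. Type I and type II regulatory subunits differ in where they sit in the cell, since type II subunits bind A-kinase anchoring proteins tightly. The inhibitor peptide encoded by Pkia blocks free catalytic subunits and carries them out of the nucleus, and it is abundant in skeletal muscle. Phosphodiesterases of the PDE4 family hydrolyse cAMP and so end the signal. In muscle, this pathway is best known for the response to adrenaline, which acts on glycogen breakdown, calcium handling and muscle mass.

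The stretches just upstream of the 2 type II regulatory genes are shown because both genes had higher levels in both dexamethasone libraries (below), and a stretch of Prkar1a is shown because it held the palindromic cAMP response element, the sequence that CREB binds. All are 5′ to 3′ on the gene's strand, from RefSeq on GRCm38.p6. Capitals mark a match to a searched motif, and a sequence without capitals held none. Prkar2b had 2 such stretches, of which the first along its strand is shown. The other held no match either. The Prkar2b window of 250 bases lies at chr12:32061278-32061527 on the minus strand, the Prkar2a window at chr9:108691893-108692142 on the plus strand, and the 30 bases of Prkar1a at chr11:109650889-109650918 on the plus strand, where 41 bases separate the motif from one of the gene's annotated starts.
Prkar2b: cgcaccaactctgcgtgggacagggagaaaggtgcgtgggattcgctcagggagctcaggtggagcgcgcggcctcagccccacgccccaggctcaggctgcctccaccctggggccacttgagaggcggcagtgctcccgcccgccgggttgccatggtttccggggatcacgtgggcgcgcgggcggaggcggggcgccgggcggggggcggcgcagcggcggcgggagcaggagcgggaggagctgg
Prkar2a: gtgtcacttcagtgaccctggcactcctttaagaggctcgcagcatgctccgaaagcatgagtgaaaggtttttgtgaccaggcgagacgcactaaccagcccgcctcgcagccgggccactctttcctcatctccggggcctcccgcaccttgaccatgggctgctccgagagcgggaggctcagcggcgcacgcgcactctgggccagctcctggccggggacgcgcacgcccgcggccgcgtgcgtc
Prkar1a: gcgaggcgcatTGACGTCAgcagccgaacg

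The 8 of 9 genes with an entry in the RefSeq promoter table, which are all but Pkia, had 22 windows of 250 bases upstream of an annotated start. Both strands were searched for 4 motifs, of which the second is part of the first and the fourth part of the third. The cAMP response element TGACGTCA was found in 1 of the 22 windows, against 1.55% of the 32851 such windows searched. These are called all windows below, although they leave out some genes. Its core TGACG was found in 7 of the 22 windows, in Prkar1a, Prkaca, Prkacb, Pde4a and Pde4b, against 17.8% of all windows. Windows of the same gene can overlap, as they do in Prkar1a, so a site can be counted more than once. The glucocorticoid response element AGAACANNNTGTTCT was found in 0 of the 22, against 0.00913% of all windows, and its arm AGAACA in 3, in Prkacb and Pde4b, against 16.1%. These are matches of letters in short windows and say nothing about binding.

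The libraries held 19631435 and 35116830 counts for vehicle replicates 1 and 2, and 32463331 and 88596296 for dexamethasone replicates 1 and 2. The 9 genes rested on 241 or more counts each in every library. All 12 myotube markers were tested, and their summed level was 131067 and 126492 CPM (counts put on a common depth with TMM factors) in the replicate 1 libraries against 47407 and 46299.9 CPM in the replicate 2 libraries, most of it from the titin gene Ttn. The libraries therefore stood apart by replicate number in this sum in both groups, and the differences of the 9 genes are given within each number too. By marker, the log2 difference of replicate 1 over replicate 2 ran from 0.02 (Mymk) to 2.94 (Ckm) in vehicle. In dexamethasone it ran from 0.00258 (Mymk) to 2.71 (Ckm), so not every marker differed by number. Markers of dividing or undifferentiated myoblasts (7 of 7 tested) summed to 57.5 and 62.0 CPM in vehicle and 42.9 and 50.8 CPM in dexamethasone. Only Pax7, the satellite cell gene, had a log2 fold change below 0 among them (-0.80, 32.0 and 39.0 CPM against 17.9 and 22.9), and the other 6 were above 0, with a median of 0.20 over the 7. Fibroblast markers (3 of 4 tested) summed to 32.0 to 56.6 CPM, with Lum at 0 counts in all libraries. Their log2 fold changes differed in sign, at 1.04 for Pdgfra, -0.98 for Col1a1 and -0.51 for Dcn. Macrophage markers (1 of 4 tested) summed to between 3.03 and 4.003 CPM, and adipocyte markers (0 of 4 tested, Cidec at 0) to at most 0.184 CPM. Neuronal and glial markers summed to 10.6 CPM in vehicle replicate 1 and to between 0.367 and 0.643 CPM in the others, where Snap25 had 160 counts against 1 to 4. The part of these differences in the results was not tested.

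The largest difference among the 9 genes was in Prkar2b (ENSMUSG00000002997), which encodes the type II beta regulatory subunit. It had 21.0 and 26.2 CPM in vehicle replicates 1 and 2 and 104 and 103 CPM in dexamethasone replicates 1 and 2. Both dexamethasone libraries lay far above both vehicle libraries, and the dexamethasone libraries were nearly equal to each other. The means were 23.6 ± 3.65 and 104 ± 1.097 CPM (SD, n = 2 each). That is a 4.38-fold difference, or 2.13 as a log2 fold change (SE 0.163, 95% interval 1.70 to 2.56). The log2 difference was 2.31 within replicate 1 and 1.97 within replicate 2. It ranked 65 of 13285 tested genes by log2 fold change and 9 by p. The adjusted p over all genes was 0.117 in edgeR's quasi-likelihood test, which did not pass the threshold of 0.05, and 3.00e-17 in DESeq2's Wald test, which did. The edgeR call depended on which library was left out, with an adjusted p of 0.0599 when vehicle replicate 1 was dropped and 0.00831 when vehicle replicate 2 was. Dropping a dexamethasone library gave 0.0434 (replicate 1) or 0.0461 (replicate 2).

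Prkar2a (ENSMUSG00000032601), the gene of the type II alpha subunit, differed in the same direction by less. It had 70.6 and 56.4 CPM in the vehicle libraries and 122 and 92.4 CPM in the dexamethasone libraries. The groups did not overlap, although within each group replicate 1 was the higher library. The means were 63.5 ± 10.0 and 107 ± 20.8 CPM (SD, n = 2 each), a 1.69-fold difference and 0.75 on the log2 scale (SE 0.206, 95% interval 0.21 to 1.299). Within the replicate numbers the log2 difference was 0.79 and 0.71. The edgeR adjusted p over all genes was 0.515.

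Prkar1a (ENSMUSG00000020612), which encodes the type I alpha subunit that most cells make, was the regulatory gene with the highest level per exonic kb in every library, and its fold change had the other sign. It had 256 and 198 CPM in vehicle and 206 and 149.7 CPM in dexamethasone. These ranges overlapped, since vehicle replicate 2 lay below dexamethasone replicate 1. Within each number the dexamethasone library was the lower one, by -0.31 and -0.40 on the log2 scale. The log2 fold change was -0.35 (SE 0.226, 95% interval -0.95 to 0.25) with an edgeR adjusted p of 1.00. With the replicate number as a block, the edgeR adjusted p was 0.00907.

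The make-up of the regulatory genes was compared inside each library, where the scaling between libraries plays no part. Prkar2b took 6.05% of the counts of the 3 regulatory genes in vehicle replicate 1 (95% Wilson interval 5.50% to 6.66%) and 9.33% in vehicle replicate 2 (8.80% to 9.90%). It took 24.1% in dexamethasone replicate 1 (23.4% to 24.9%) and 29.8% in dexamethasone replicate 2 (29.3% to 30.3%). Prkar1a took 73.6% and 70.6% in vehicle against 47.6% and 43.4% in dexamethasone, and Prkar2a 20.3% and 20.1% against 28.2% and 26.8%. In vehicle most counts were thus of the type I gene, and in dexamethasone most were of the type II genes. Corrected for exonic length, the share of Prkar2b was 7.57% and 11.6% in vehicle and 29.97% and 36.4% in dexamethasone, and Prkar1a held 49.98% and 44.8% in dexamethasone. Per kb of the whole gene, mean CPM in vehicle and dexamethasone was 11.2 and 8.78 for Prkar1a. It was 1.04 and 1.75 for Prkar2a and 0.230 and 1.01 for Prkar2b. By that length Prkar1a stood above both type II genes together in both groups, so which type held the majority depends on the length used. For Prkar2b, the gap between the replicates of a group exceeded the Wilson intervals, which cover counting error only.

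**Figure D1:**
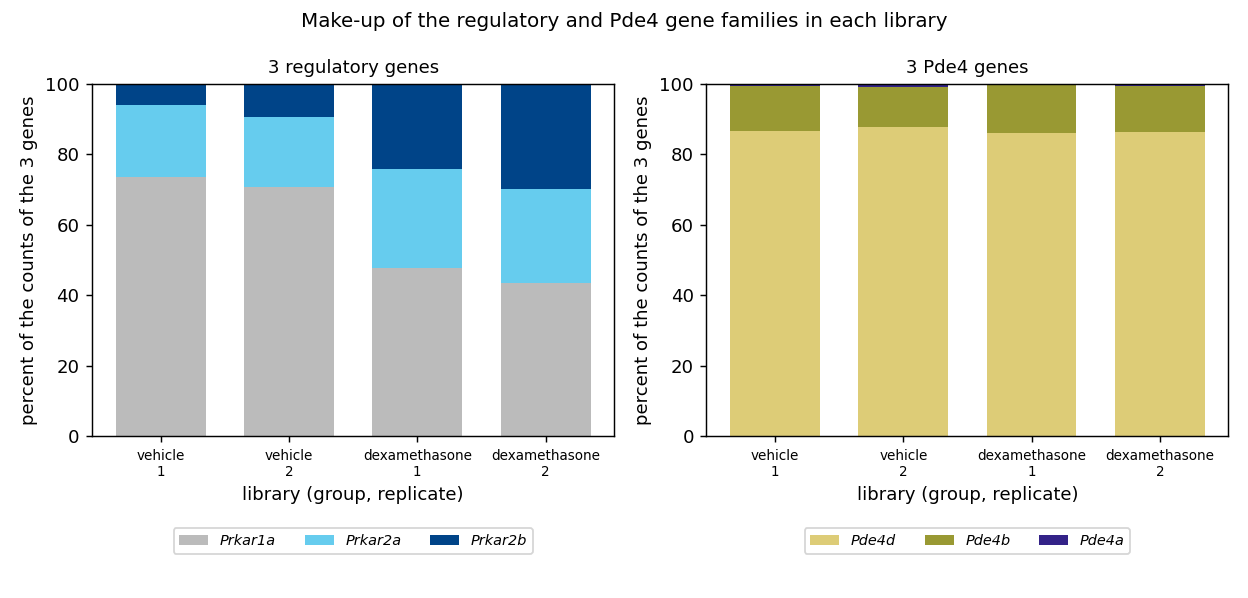
Stacked bars give, for each of the 4 libraries on the x axis, the percent of the summed counts of the 3 regulatory genes (left) and of the 3 Pde4 genes (right) that each gene took. The Prkar2b part grows from 6.05% and 9.33% in the vehicle libraries to 24.1% and 29.8% in the dexamethasone libraries. Pde4d holds over 85% of the counts of these 3 Pde4 genes, which do not include Pde4c, in all 4.

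The catalytic genes differed little between the groups. Prkaca (ENSMUSG00000005469), which encodes the alpha catalytic subunit, had 94.3 and 82.1 CPM in vehicle and 99.4 and 76.1 CPM in dexamethasone. Its vehicle range lay inside its dexamethasone range. The log2 fold change was -0.01 (SE 0.183), and the 95% interval of -0.49 to 0.48 leaves room for a modest change either way. Within the replicate numbers the log2 difference was 0.08 and -0.11. Prkacb (ENSMUSG00000005034), the gene of the beta catalytic subunit, had 177 and 146 CPM in vehicle and 177 and 154 CPM in dexamethasone. Its log2 fold change was 0.04 (SE 0.161, 95% interval -0.39 to 0.46), with -0.000856 and 0.08 within the numbers. In both genes replicate 1 was the higher library in each group. Prkacb took 64.0% to 67.0% of the counts of the pair in the 4 libraries. Corrected for exonic length its share was 33.5% to 36.5%, so that Prkaca then held the larger share. The summed level of the regulatory genes per exonic kb was 1.31 and 1.247 times that of the catalytic genes in vehicle, and 1.58 and 1.603 times in dexamethasone. Per kb of the whole gene, mean CPM in vehicle and dexamethasone was 3.76 and 3.74 for Prkaca and 1.94 and 1.99 for Prkacb. Prkar1a, the largest regulatory term by that length, went from 11.2 to 8.78. With those means the ratio did not rise in dexamethasone, so its direction depends on the length used.

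Pkia (ENSMUSG00000027499), the gene of the heat-stable inhibitor of the catalytic subunits, was lower in both dexamethasone libraries. It had 335 and 328 CPM in vehicle and 168 and 222 CPM in dexamethasone. The vehicle libraries lay close together and the dexamethasone libraries below them and further apart. The means were 332 ± 4.42 and 195 ± 38.1 CPM (SD, n = 2 each), which is -0.77 on the log2 scale (SE 0.178, 95% interval -1.24 to -0.30). The log2 difference was -0.997 within replicate 1 and -0.57 within replicate 2. The adjusted p over all genes was 0.386 in edgeR and 0.0369 in DESeq2's Wald test, which put it past the threshold. Per exonic kb, Pkia stood at 1.55 and 1.78 times the summed catalytic genes in vehicle and at 0.749 and 1.24 times in dexamethasone. Per kb of the whole gene, mean Pkia was 4.21 CPM in vehicle and 2.47 in dexamethasone. Both values lay below the sum of the catalytic genes by that length, so where Pkia stood against them depends on the length used.

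**Figure D2:**
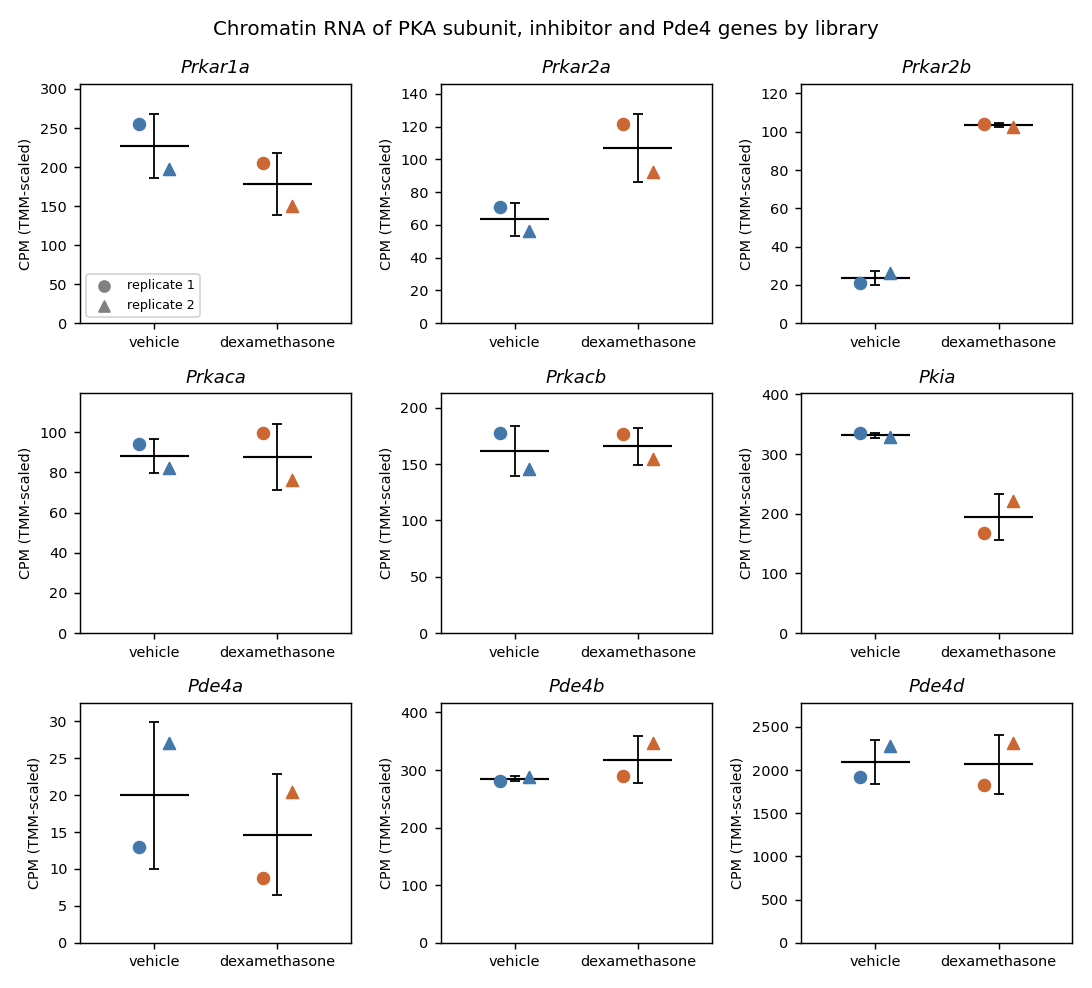
Each panel plots the TMM-scaled CPM of 1 gene on the y axis for vehicle and dexamethasone on the x axis, with circles for replicate 1, triangles for replicate 2, a line at the group mean and bars of 1 SD (n = 2). Prkar2b and Prkar2a have both dexamethasone points above both vehicle points, Pkia has both below, and in Pde4a the triangles are above the circles in both groups.

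Among the phosphodiesterase genes, Pde4d (ENSMUSG00000021699) had the most counts. It had 1915 and 2273 CPM in vehicle and 1827 and 2309.8 CPM in dexamethasone, and it ranked 21 of 13285 tested genes by mean vehicle CPM, which is not corrected for length. The vehicle range lay inside the dexamethasone range, with a log2 fold change of -0.02 (SE 0.194, 95% interval -0.53 to 0.50) and differences of -0.07 and 0.02 within the numbers. Pde4b (ENSMUSG00000028525) had 282 and 288 CPM in vehicle and 289.9 and 346 CPM in dexamethasone. Its groups did not overlap, but the gap between vehicle replicate 2 and dexamethasone replicate 1 was small. The log2 fold change was 0.16 (SE 0.145, 95% interval -0.22 to 0.54), and the log2 difference was 0.04 within replicate 1 and 0.27 within replicate 2.

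Pde4a (ENSMUSG00000032177) had the lowest mean vehicle CPM of the 9 genes and the lowest mean per exonic kb, although in vehicle replicate 2 Prkar2b had fewer counts. It had 12.9 and 27.0 CPM in vehicle and 8.84 and 20.5 CPM in dexamethasone. The replicate number divided these values more than the treatment did, since replicate 2 was the higher library in both groups. Replicate 1 was below replicate 2 by -1.06 on the log2 scale in vehicle and by -1.21 in dexamethasone. Within each number, the dexamethasone library was the lower one, at -0.55 and -0.40. The log2 fold change was -0.44 (SE 0.544, 95% interval -1.88 to 1.00), and it turned to 0.20 without vehicle replicate 2 and to 0.03 without dexamethasone replicate 1. Pde4d took 85.9% to 87.8% of the counts of the 3 Pde4 genes, Pde4b 11.1% to 13.6% and Pde4a 0.416% to 1.04% (range over the 4 libraries). Pde4c, named here to complete the family, was listed with the other phosphodiesterases and is not in these shares. It had 52 and 81 counts in vehicle and 79 and 163 in dexamethasone. The counts are per gene, so the long and short isoforms of these genes, which start at different promoters, are not told apart.

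Over the 9 genes, 0 were called higher and 0 lower at an adjusted p under 0.05 in edgeR's quasi-likelihood test, where 0.0376% of all tested genes were called higher and 0% lower. Before adjustment, p in that test was under 0.05 for Prkar2a and Prkar2b (2 higher) and for Pkia (1 lower), beside 4.09% and 1.69% of all tested genes. By DESeq2's Wald test, Prkar2b was called higher and Pkia lower, 1 gene in each direction, where that test called 1.81% and 0.407% of the genes it gave an adjusted p. The libraries of the groups did not overlap in 3 genes in the higher direction and 1 in the lower, beside 15% and 12.9% of all tested genes. The median log2 fold change was -0.01 for the 9 genes and -0.00159 for all tested genes. In 6 of the 9 genes the difference had the same sign within both replicate numbers, as it had in 68.1% of all tested genes.

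**Figure D3:**
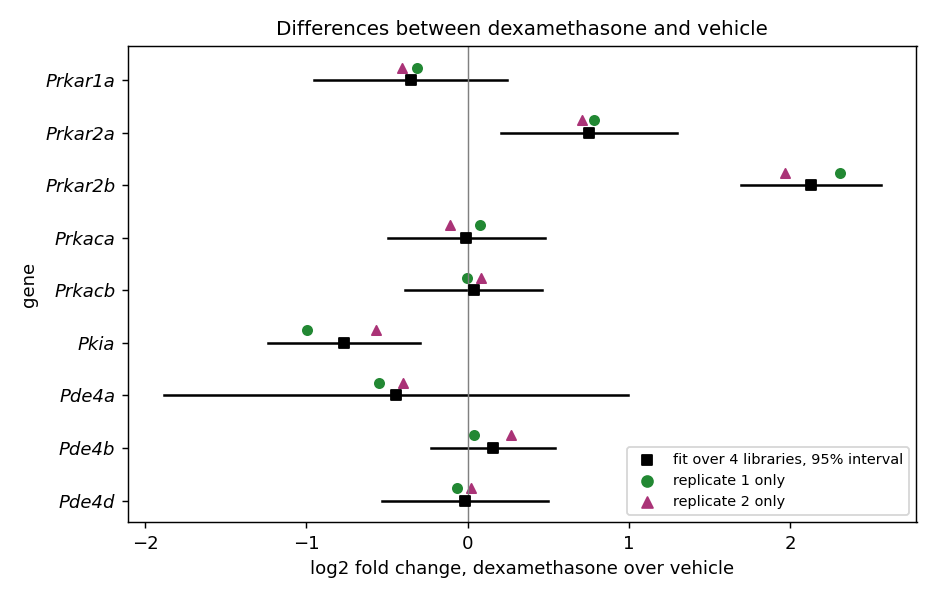
The x axis is the log2 fold change of dexamethasone over vehicle for each of the 9 genes on the y axis. Squares with lines are the edgeR values over 4 libraries with 95% intervals, and circles and triangles are the differences within replicate 1 and replicate 2. The intervals of Prkar2b (1.70 to 2.56), Prkar2a (0.21 to 1.299) and Pkia (-1.24 to -0.30) lie off 0, before any adjustment for the number of genes tested.

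The shares and ranks above rest on counts that are not corrected for length unless stated, so levels of the genes are set side by side here per length. Per kb of exon, the vehicle libraries gave 159 and 189 CPM for Pde4d, 89.9 and 88.3 for Pkia, 59.2 and 45.8 for Prkar1a, 37.9 and 33.0 for Prkaca and 26.7 and 27.3 for Pde4b. The lower ones were Prkacb at 20.2 and 16.6 CPM per exonic kb, Prkar2a at 11.1 and 8.85, Prkar2b at 5.76 and 7.17 and Pde4a at 1.69 and 3.53. No neighbours in this order overlapped across the vehicle libraries. In dexamethasone, Prkar2b reached 28.6 and 28.1 CPM per exonic kb and lay above Prkacb (20.2 and 17.6) and Prkar2a (19.1 and 14.5), which overlapped each other. Pkia (45.1 and 59.5) then overlapped Prkar1a (47.6 and 34.6), which overlapped Prkaca (40.0 and 30.6), and Prkaca overlapped Pde4b (27.5 and 32.8). Both Prkar2b values lay inside the range of Pde4b. The sources used here do not say whether reads in introns were counted. Per kb of the whole gene, the mean vehicle level of Pde4d was 1.39 CPM and that of Prkar1a 11.2, so the order depends on the length used, and a difference between groups in 1 gene does not. Shares and ratios over several genes depend on it too.

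The rest of the cAMP pathway was described with 7 lists written from general knowledge. The phosphodiesterase list also holds Pde5a and Pde9a, which act on cyclic GMP rather than cAMP. The lists held 74 genes, of which 62 were tested. None of them was called by edgeR's quasi-likelihood test at an adjusted p under 0.05, and before adjustment 5 had a p under 0.05 in the higher direction and 2 in the lower (Pde8a and Bves), where 4.09% and 1.69% of all tested genes did. With DESeq2's Wald test, Sik1 and Rapgef4 passed as higher and Pde8a as lower, beside 1.81% and 0.407% of all genes with an adjusted p. Pde8a and Bves are named after their values were seen. The log2 fold change was above 0 in 21 of the 62 and below 0 in 41, with a median of -0.06, while over all tested genes 6601 were above 0 and 6684 below.

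Of the other PKA and inhibitor genes, 3 of 4 were tested, with 1 fold change above 0 and 2 below. Prkx, which encodes a PKA-like kinase, had the highest log2 fold change at 0.28 (SE 0.160). Prkar1b, the type I beta regulatory gene that is mainly neuronal, had the lowest at -1.05 (SE 0.750). Its counts were 55 and 26 in vehicle and 26 and 78 in dexamethasone, so the value rests on vehicle replicate 1, the library with 160 counts of Snap25; whether these are linked was not tested. The other phosphodiesterases had 14 of 15 tested, with 3 above 0 and 11 below. Pde3a had the highest value at 0.99 (SE 0.262, 39 and 67 counts in vehicle and 113 and 362 in dexamethasone). Pde9a, which acts on cyclic GMP, had the lowest at -1.17 (SE 0.713), on 2 to 27 counts. Pde8a, a high-affinity cAMP phosphodiesterase, had 20.0 and 20.1 CPM in vehicle and 7.81 and 11.03 CPM in dexamethasone, a log2 fold change of -1.08 (SE 0.224, DESeq2 adjusted p 0.0111, edgeR adjusted p 0.321).

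Adenylyl cyclases make cAMP, and 8 of 10 were tested. The fold change was below 0 in 7 of the 8, and in 4 of them both dexamethasone libraries lay below both vehicle libraries, where 12.9% of all tested genes did. Adcy1 had the lowest value at -1.29 (SE 0.611), with 5.20 and 1.71 CPM in vehicle against 1.601 and 1.21 CPM in dexamethasone, so that it too was highest in vehicle replicate 1, and Adcy10 the highest at 0.04 (SE 0.469). The median over the cyclases was -0.31, and none of these passed in edgeR over all genes. A-kinase anchoring proteins had 12 of 15 tested, with 8 above 0 and 4 below. They ran from Akap5 at -0.15 (SE 0.270) to Akap12 at 0.34 (SE 0.629).

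Receptors and G proteins had 10 of 14 tested, with 2 above 0 and 8 below. Adora2b, an adenosine receptor gene, had the lowest value at -0.75 (SE 0.297). Gnai2 and Sik2 were listed at 0 in every library. Both lie on the minus strand of chromosome 9, where 560 of 611 genes (91.7%) were listed at 0, so neither was read as silent. Prkar2a and Pde4a lie on the plus strand of that chromosome, where 134 of 682 genes (19.6%) were at 0, against 20.5% on the plus strand of the other chromosomes.

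CREB, its coactivators and the salt-inducible kinases that restrain them had 10 of 11 tested, with 4 above 0 and 6 below. Sik1 stood apart at 69.0 and 56.6 CPM in vehicle and 124 and 116 CPM in dexamethasone, a log2 fold change of 0.94 (SE 0.153, edgeR adjusted p 0.209, DESeq2 adjusted p 0.00240). Crtc3, a CREB coactivator gene, had the lowest value at -0.24 (SE 0.179). Of 5 other cAMP effectors, all tested, Rapgef4 was highest. It encodes EPAC2, which cAMP activates without PKA. It had 63 and 141 counts in vehicle and 363 and 1047 in dexamethasone, or 3.38 and 3.72 against 12.1 and 11.2 CPM, a log2 fold change of 1.71 (SE 0.191, edgeR adjusted p 0.123, DESeq2 adjusted p 4.52e-06). Popdc3, which encodes a muscle cAMP-binding membrane protein, had the lowest value at -0.57 (SE 0.2503).

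**Figure D4:**
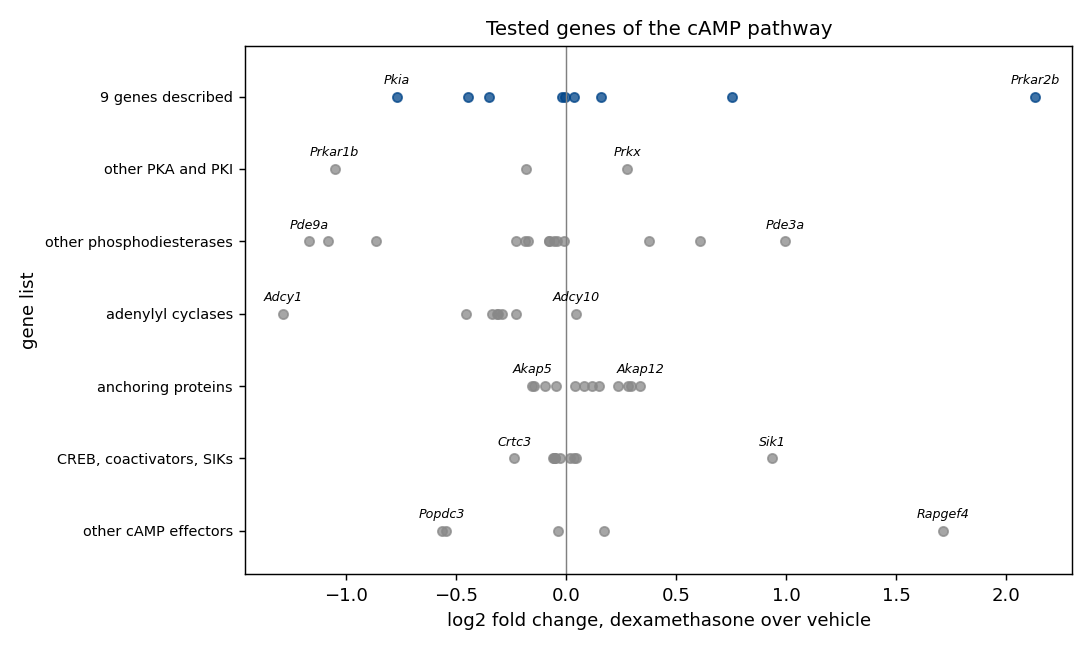
Each point is a tested gene, placed by its log2 fold change of dexamethasone over vehicle on the x axis and by its list on the y axis, with the highest and lowest gene of each list named; receptors and G proteins are not plotted. Prkar2b at 2.13 and Rapgef4 at 1.71 are the points farthest to the right, and 7 of the 8 adenylyl cyclases lie left of 0.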

How the data were processed

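Raw read counts per gene were deposited by the authors in 1 table with a symbol and an Ensembl identifier per row. The submitters' processing notes name TopHat2 2.0.13, SAMtools 1.1, HTSeq 0.6.1, DESeq2 1.18.1 and mm9. The annotation, the strand setting and whether introns were counted are not given in the sources used here. Of 23333 rows, 51 repeated an earlier gene with all its counts and were used once. Groups and replicate numbers came from the sample titles. Counts were scaled by TMM (factors 0.950, 1.08, 0.924 and 1.05 for vehicle 1, vehicle 2, dexamethasone 1 and dexamethasone 2) and filtered with filterByExpr (minimum count 10, minimum total 15). The test was edgeR's quasi-likelihood test (edgeR 4.0.16, R 4.3.3, two-sided, group only, 2 residual degrees of freedom), with Benjamini-Hochberg adjustment over 13285 genes and a threshold of 0.05. Within-number differences are ratios of scaled CPM. Exonic lengths and strands came from GENCODE M21 (GRCm38), matched for 99.5% of tested genes. Since the counts were made on mm9, no gene coordinates are given beyond the RefSeq windows. Opposite-strand neighbours of the 9 genes share no exon with them. The scripts were tested on simulated data.

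The 9 genes and the lists were chosen with earlier results of these data known. Named besides the 9 genes are those with the largest rise and fall in each list, and 3 genes nearest in profile to Prkar2b, unless said otherwise. The gene with the largest rise among the receptors and G proteins is not reported here. The alternatives were other scaling (DESeq2 size factors, upper quartile, library size only), other filters, DESeq2 1.42.0, limma-voom 3.58.1, the replicate number as a block (alone or with a gene length correction, loess span 0.3), a threshold of 0.1 and leaving out each library. Tests without 1 library, where the lone library of a group is assumed to vary like the other group, and libraries thinned to the smallest total were added after seeing the data.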

Additional observations from a re-analysis of the deposited data

How the results depend on the processing

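Over 15 alternatives for each of the 9 genes, 110 values kept the direction and the side of the threshold, 16 kept the direction and passed it, and 9 changed sign. Prkar2b stayed between 2.08 and 2.14 on the log2 scale under every alternative that kept all 4 libraries, Prkar2a between 0.71 and 0.78, and Pkia between -0.80 and -0.75. With no filter beyond 1 count, 23 of 17880 genes were called higher, and 1 of the 9 genes passed (Prkar2b, edgeR adjusted p 0.0458). DESeq2 called 236 higher and 53 lower, with 1 of the 9 in each direction and 2 higher and 1 lower of the other cAMP genes. limma-voom called 0 genes (Prkar2b adjusted p 0.121). The median of the 9 genes was -0.0348 with upper quartile scaling and -0.0516 with library size only. Prkaca changed sign with no filter (0.00761), at a value near 0 in every fit with 4 libraries.

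No label ties a replicate number to a common culture day, and with only 2 numbers the source of a gap they share cannot be told. Across tested genes, the log2 gap from the first to the second library in vehicle had a correlation of r = 0.800 with that in dexamethasone. Libraries of the same number thus shared much of their difference. The common coefficient of variation between libraries in edgeR was 0.245 without the replicate number as a block and 0.0552 with it. With the replicate block, 913 of 13285 tested genes were called higher and 768 lower. Of the 9 genes, 2 were called higher, Prkar2a and Prkar2b (edgeR adjusted p with the block 0.000629 and 9.25e-05). Another 3 were called lower, Prkar1a, Pkia and Pde4a (0.00907, 0.00444 and 0.0168 in that fit). Of the 62 other cAMP genes tested, 8 were called higher and 6 lower. With gene length corrected for as well as the replicate block, these were 1101 and 1080, 2 and 3, and 10 and 9, and the median of the 9 was -0.0281. The cause was not tested.

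Leaving out 1 library gave 4 (without vehicle replicate 1) to 84 (without vehicle replicate 2) genes called higher and 0 to 109 called lower, with 0 to 1 of the 9 higher (Prkar2b). The median of the 9 ran from 0.0245 to 0.119, Prkaca from -0.21 to 0.17, Prkacb from -0.0902 to 0.19, Pde4a from -1.18 to 0.20 and Pde4d from -0.20 to 0.15. Prkar1a ran from -0.59 (without dexamethasone replicate 1) to -0.14 (without dexamethasone replicate 2) and Pde4b from 0.02 (without dexamethasone replicate 2) to 0.29 (without dexamethasone replicate 1), neither past the threshold. The lowest count among the 9 genes was 241, for Pde4a in the smallest library.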

Other observations

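The 3 tested genes whose centred log2 CPM over the 4 libraries lay nearest to that of Prkar2b were Ly6a, Ampd3 and Ehd3, at Euclidean distances of 0.117, 0.144 and 0.156. Ampd3, a gene of AMP deaminase, had 21.6 and 26.04 CPM in vehicle and 96.1 and 93.9 CPM in dexamethasone, close to the 21.0, 26.2, 104 and 103 CPM of Prkar2b itself. Ly6a, which encodes the surface protein Sca-1, had 1.39 and 1.66 against 6.44 and 6.30 CPM, and Ehd3, a gene of endosomal membrane traffic, 8.85 and 10.99 against 42.4 and 37.9 CPM. In all, 33 genes lay within a distance of 0.5, and with 4 libraries such likeness is a description only.

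Replicate 1 was higher than replicate 2 in both groups in Prkar1a, Prkar2a, Prkaca and Prkacb, and lower in both in Pde4a, Pde4b and Pde4d, so 7 of the 9 kept the sign of this difference between the groups. This is near the share of all tested genes, 82.4%, and in Pde4b the vehicle difference was only -0.03 on the log2 scale. Prkar2b was lower in replicate 1 than in replicate 2 by -0.32 on the log2 scale in vehicle and differed by 0.02 in dexamethasone, and Pkia differed by 0.03 in vehicle and by -0.40 in dexamethasone. What the replicate numbers stand for is not given in the labels.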
